A study of Mus musculus with 2 samples.

Results

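The IgLON and SynCAM families of neuronal adhesion genes, 8 genes in all, were examined for single-base N6-methyladenosine (m6A) in newborn mouse brain. The 4 IgLON genes were Lsamp, Ntm, Opcml and Negr1, and the 4 SynCAM genes were Cadm1, Cadm2, Cadm3 and Cadm4. A listed m6A site was counted for a gene when it lay inside the GENCODE M21 interval of that gene on GRCm38 and on the strand of the gene, introns included. The genes were picked by family, but with earlier results of these data known, so that their counts are descriptions and carry no test. Together they held 778 of the 79355 sites listed in cerebellum and 1900 of the 188295 sites listed in cerebrum, and they were 8 of the 12874 protein-coding genes with at least 1 site.

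Sites were measured by GLORI, in which glyoxal and nitrite deaminate unmethylated adenosines so that they are read as G, while adenosines with m6A are still read as A. There was 1 library of cerebellum and 1 of cerebrum, both from poly(A)+ RNA of the labelled type female, P0 (day of birth), F1r and GLORI+, where F1r is the offspring of a C57 mother and a PWK father. Other crosses, ages or sexes and untreated control libraries were not analysed here. The deposited lists give only the position and strand of each site, so that the methylation rate and the read depth behind a site are unknown, and with 1 library per tissue no difference between the tissues could be tested.

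IgLON proteins are small immunoglobulin-domain adhesion molecules that are tethered to the outer face of the plasma membrane by a glycolipid anchor, and they are known for roles in neurite outgrowth and synapse formation. SynCAM proteins, encoded by the Cadm genes, span the membrane and bind each other across synapses and between axons and glia. In mRNA, m6A is deposited mainly in the DRACH motif, a 5-base context centred on an A that follows A or G and precedes C. It is known to be concentrated in last exons and in long internal exons, and to be sparse close to splice junctions.

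The 8 genes differ widely in architecture. Lsamp, chr16:39984361-42181679 on the plus strand, spans 2197 kb, followed by Opcml at chr9:27790775-28925410 (plus) with 1135 kb and Ntm at chr9:28994750-29963141 (minus) with 968 kb. Cadm2 covers chr16:66655421-67620908 (minus), Negr1 chr3:156561794-157316445 (plus) and Cadm1 chr9:47530173-47857637 (plus). Cadm3, chr1:173333258-173367695 (minus), and Cadm4, chr7:24482023-24504539 (plus), are compact genes of 34.4 and 22.5 kb. Each has 7 to 10 exons in its reference isoform, here the longest transcript with a complete coding sequence (CDS) and both untranslated regions (UTRs). Their internal exons measure 27 to 233 nt, and the last exon holds a 3′ UTR of 918 nt in Cadm4 up to 7437 nt in Lsamp and 7672 nt in Cadm2.

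The tissue labels were set beside the listed sites of marker genes. En1 and En2, which mark the hindbrain, had 6 and 9 exonic sites in the cerebellum library and 0 in the cerebrum library. Tbr1 and Dlx1, which mark forebrain neurons, had 20 and 35 exonic sites in cerebrum and 0 in cerebellum. Other markers had sites in both libraries. Of the 10 cerebellum markers 8 had an exonic site in cerebellum and 5 in cerebrum, and Zic1 (19 and 22), Zic2 (9 and 10) and Zic4 (4 and 20) had more sites in cerebrum. Of 8 cerebrum markers 4 had an exonic site in cerebellum, with 1 to 24 sites, and 8 in cerebrum. The name under which the cerebrum list was deposited also carries the short form that the study uses for cerebellum, and each tissue was taken from its sample record. Atoh1 and Pax2 had 0 sites in either library. A site is listed only where enough reads cover it, so that fewer cells of a type and less RNA per cell cannot be told apart from a lower methylation.

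All 8 genes carried at least 1 exonic DRACH site that was listed in both libraries, as did 52.8% of coding genes with a site. The shared site nearest to the stop codon is shown for each gene as 21 nt of the GRCm38 reference (RefSeq, GRCm38.p6), written 5′ to 3′ on the gene strand, with the 5-base context of the listed A in capitals. These letters are those of the C57 reference, and the PWK allele was not read. All but one of these are in the 3′ UTR, and that of Opcml is at the end of the coding sequence.
Lsamp, chr16:42174398-42174418, plus strand, 166 nt past the stop codon: aacactaaAAACAgttttaag
Ntm, chr9:28996405-28996425, minus strand, 119 nt past: agccaatgAGACAgaaattcg
Opcml, chr9:28920145-28920165, plus strand, 32 nt before the end of the stop codon: gctctcagGGACCttctttgc
Negr1, chr3:157312909-157312929, plus strand, 9 nt past: gaatctaaAGACCcatgaaag
Cadm1, chr9:47850436-47850456, plus strand, 56 nt past: tgataaagAGACAgtgatact
Cadm2, chr16:66663043-66663063, minus strand, 40 nt past: taccaggcTGACTgctggaga
Cadm3, chr1:173336968-173336988, minus strand, 43 nt past: ccccatggGGACTgctgggct
Cadm4, chr7:24503651-24503671, plus strand, 40 nt past: gccagcaaAGACAttgaccag

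Across whole gene intervals most sites lay in introns. Lsamp, the limbic system-associated membrane protein, had 232 sites in cerebellum and 582 in cerebrum, of which 13 and 23 were on an exon of any of its transcripts. Cadm2 had 180 and 414 sites, of which 20 and 26 were exonic. Ntm, which encodes neurotrimin, had 106 and 221 sites with 26 and 36 on exons.

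Opcml, the opioid-binding cell adhesion molecule, had 95 sites in cerebellum and 314 in cerebrum, and 43 and 50 of these were exonic, the highest exonic counts of the 8 genes. Negr1, the neuronal growth regulator, had 101 and 194 sites with 12 and 18 on exons. Cadm1 had 54 and 145 sites, 4 and 19 of them exonic. Cadm3 had 9 and 24 sites and Cadm4 had 1 and 6, and these compact genes were the only members with most of their sites on exons (7 and 17 in Cadm3, 1 and 6 in Cadm4).

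**Figure D1:**
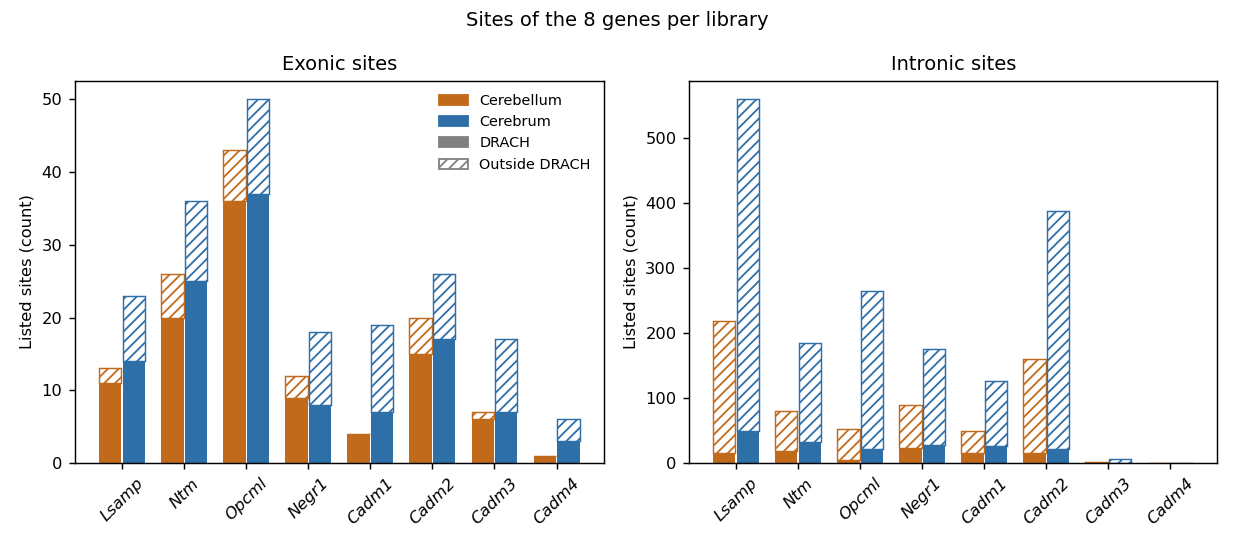
Number of listed exonic sites (left) and intronic sites (right) per gene, with filled bars for DRACH and hatched bars for other contexts, in each library (1 library per tissue, so no error bar). Sites outside DRACH make up most of the intronic bars of Lsamp, Ntm, Opcml, Negr1, Cadm1 and Cadm2, while exonic DRACH counts are close between the libraries, with 36 and 37 in Opcml.

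With introns included, the members had low shares of DRACH sites and of shared sites beside other coding genes. DRACH contexts were 24.9% of member sites in cerebellum and 15.6% in cerebrum, against 63.2% and 47.5% of the sites of all coding genes. Sites listed in both libraries were 19.3% of the cerebellum and 7.89% of the cerebrum member sites, against 61.3% and 26% over coding genes. On exons alone the DRACH share was 81.0% and 60.5%, beside 73.6% and 59.8% for coding genes. Exonic and intronic sites were therefore described separately.

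On coding transcripts the members' sites were mainly in the 3′ UTR. Of 120 sites in cerebellum, the 3′ UTR held 102 (85.0%, 95% Wilson interval 77.5 to 90.3%), the CDS 6 and the 5′ UTR 12. Of 169 sites in cerebrum, the 3′ UTR held 138 (81.7%, 75.1 to 86.8%), the CDS 18 and the 5′ UTR 13. Over the reference isoforms of coding genes the 3′ UTR had 56.1% and 53.6%, the CDS 41.3% and 43.5%, and the 5′ UTR 2.65% and 2.94% of sites. Counted on reference isoforms as well, the members had 90.1% and 85.4% in the 3′ UTR and 4.50% and 4.43% in the 5′ UTR. Part of their 5′ UTR sites belongs to other isoforms. These intervals cover counting error over sites only, and neighbouring sites of a transcript are not independent.

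Within the reference isoforms, 85 of 89 DRACH sites in cerebellum and 99 of 106 in cerebrum were in the last exon (95.5% and 93.4%), beside 71.4% and 71% over coding genes. Within 200 nt of the stop codon lay 16 of 111 sites in cerebellum and 26 of 158 in cerebrum (14.4%, 9.07 to 22.1%, and 16.5%, 11.5 to 23.0%), with intervals that include the 20.1% and 18.7% of coding genes. By family this was 8 of 81 and 8 of 100 sites of the IgLON genes (9.88% and 8.0%). Of the SynCAM genes it was 8 of 30 and 18 of 58 (26.7% and 31.0%). These family shares also depend on how many sites lie farther out. Farther out, 57 of the 89 and 65 of the 106 DRACH sites were 1000 nt or more downstream of the stop codon (64.0% and 61.3%), against 17.9% and 17.6% for coding genes. Long 3′ UTRs offer more such positions, so the listed sites were next set against the DRACH adenosines that these transcripts contain.

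The reference isoforms of the 8 genes contain 888 DRACH adenosines, of which 89 were listed in cerebellum (10.02%, 8.22 to 12.2%), 106 in cerebrum (11.9%, 9.97 to 14.2%) and 80 in both. Over all coding genes the shares were 4.22%, 7.2% and 3.53%. The IgLON genes had 65 and 74 of 467 DRACH adenosines listed (13.9% and 15.9%), and the SynCAM genes 24 and 32 of 421 (5.70%, 3.86 to 8.34%, and 7.60%, 5.43 to 10.5%), with intervals that include the background. Within 200 nt of the stop codon the members have 56 DRACH adenosines, and 13 (23.2%, 14.1 to 35.8%) and 17 (30.4%, 19.9 to 43.3%) were listed. This was a higher share than over their whole isoforms, with a background of 8.69% and 14.9%. In the IgLON genes 6 and 7 of 26 such adenosines were listed (23.1% and 26.9%). In the SynCAM genes 7 and 10 of 30 were listed (23.3% and 33.3%), with intervals that overlap between the families.

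Ntm and Opcml had the highest shares. In Ntm 17 of 73 DRACH adenosines were listed in cerebellum (23.3%, 15.1 to 34.2%) and 20 in cerebrum (27.4%, 18.5 to 38.6%). In Opcml 29 of 126 (23.0%, 16.5 to 31.1%) and 32 of 126 (25.4%, 18.6 to 33.7%) were listed. Among the 10023 coding genes with at least 40 DRACH adenosines, Ntm ranked 162 in cerebellum and 319 in cerebrum and Opcml 170 and 414, where the median gene had 1.69% and 4.35% listed. Without Opcml the share over the other members was 7.87% and 9.71%.

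The remaining genes ranked lower. In cerebellum Negr1, Cadm2, Cadm3 and Lsamp were still above the upper quartile of 5.62%, with 76.0% to 86.2% of genes below them. Cadm1 and Cadm4 had 54.05% and 58.1% of genes below. In cerebrum all 6 were under the upper quartile of 10.4%, with 55.3% to 69.0% of genes below. Negr1 had 9 and 8 of 97 listed, Lsamp 10 and 14 of 171, Cadm2 15 and 17 of 200, and Cadm3 6 and 7 of 85, each between 5.85% and 9.28%. Cadm1 had 2 and 5 of 96 and Cadm4 1 and 3 of 40, with shares of 2.08% and 2.5% in cerebellum. The intervals of these 6 genes overlap one another in both libraries, and those of Ntm and Opcml overlap each other. The 6 genes are not fully separated from Ntm and Opcml. The intervals of Negr1 in cerebellum and of Cadm4 in cerebrum reach into those of both.

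**Figure D2:**
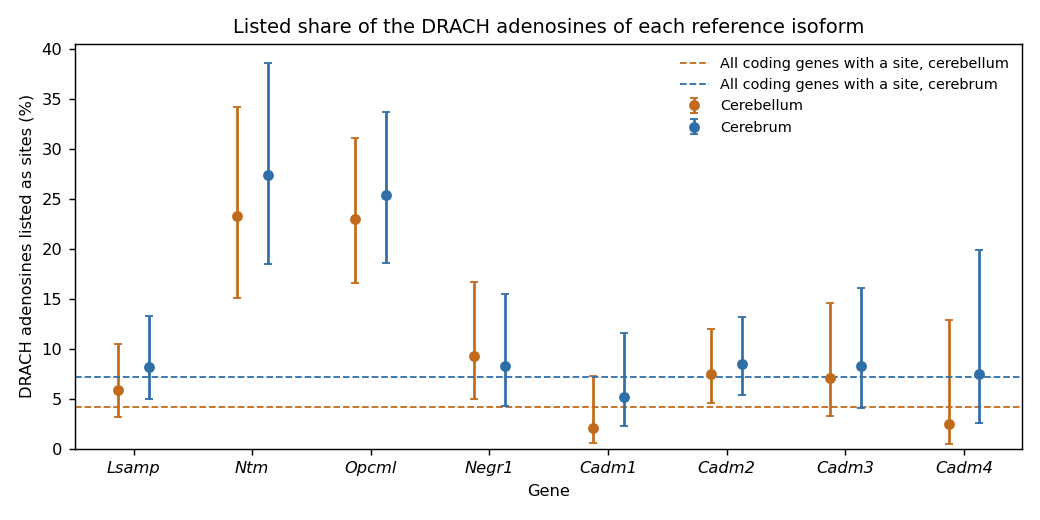
Share of the DRACH adenosines of each reference isoform that were listed as sites in each library, in percent, with 95% Wilson intervals that cover counting error only; the reference lines give the share over all coding genes (4.22% and 7.2%). Ntm and Opcml lie between 23.0% and 27.4%, and the other 6 genes between 2.08% and 9.28%.

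Along the 3′ UTR of the reference isoform, the DRACH sites of each gene had their own layout. In Opcml, whose 3′ UTR is 5223 nt long, 25 DRACH sites of the cerebellum and 27 of the cerebrum, 24 of them shared, fell between 1100 and 3000 nt past the stop codon, where the transcript has 48 DRACH adenosines. None of the 8 DRACH adenosines at 500 to 1000 nt was listed, nor were those at 3000 to 4000 nt. The 27 shared 3′ UTR sites of Opcml were separated by a median of 66 nt. In Ntm, with a 3′ UTR of 1784 nt, 14 shared sites ran from 119 to 1552 nt past the stop codon with a median gap of 78 nt.

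The 50 nt of Ntm with the most sites lie in this stretch and hold 4, of which 3 were listed in both libraries. A pair of the shared ones is shown as an example of closely packed sites.
Ntm, chr9:28995190-28995210, minus strand, 1334 nt past the stop codon: catgtcagAGACAtttctaca
Ntm, chr9:28995168-28995188, minus strand, 1356 nt past: agcagaaaGGACAacagaaac

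Lsamp and Cadm2, which have the longest 3′ UTRs, showed a different arrangement. In Lsamp 5 of the 8 DRACH adenosines in the first 500 nt were listed in both libraries, and the next shared site came only 3546 nt past the stop codon, with the farthest at 7145 nt. In Cadm2 5 of the 10 DRACH adenosines in the first 500 nt were shared, and the other 6 shared sites were spread out to 6924 nt. Negr1 had the same 8 DRACH sites in the 3′ UTR in both libraries, from 9 to 3144 nt past the stop codon.

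The other SynCAM genes shared few DRACH sites in this exon. Cadm1, which encodes an adhesion protein of synapses, shared 2 sites at 56 and 70 nt in its reference isoform, and the other 3 of that 3′ UTR, as far as 2034 nt, were listed in cerebrum alone. A further shared DRACH site of Cadm1 lay in the 3′ UTR of another annotated isoform. Cadm3 shared 4 sites at 43, 67, 871 and 2264 nt, and Cadm4, whose protein is known from contacts between axons and myelinating glia, shared 1 at 40 nt.

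**Figure D3:**
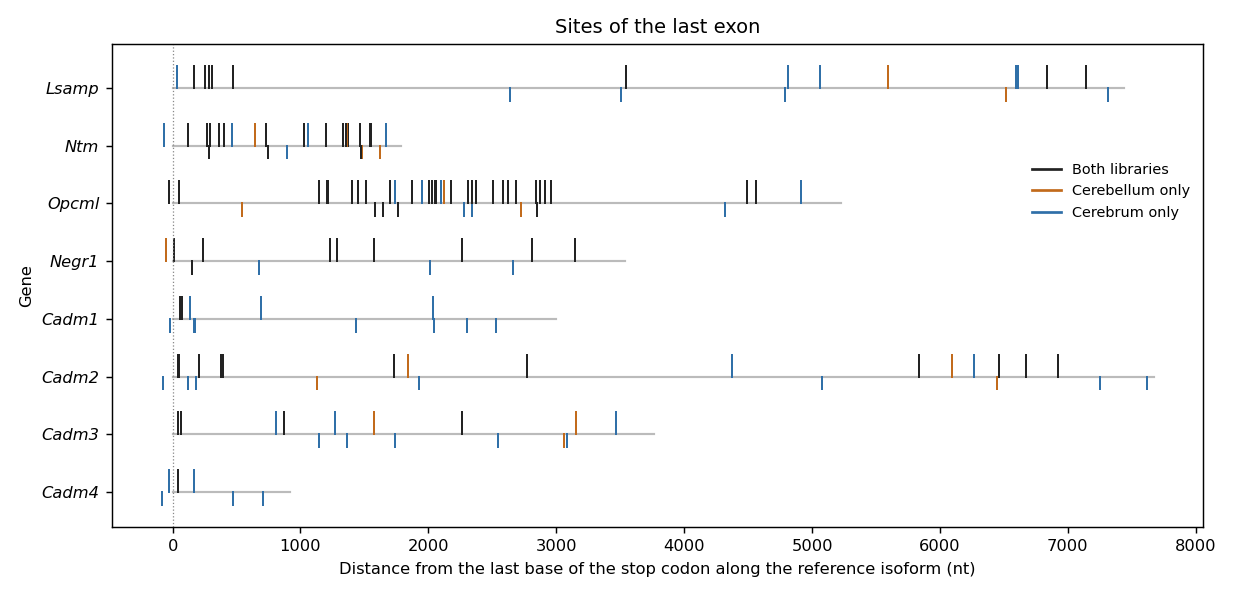
Positions of listed sites in the last exon of each reference isoform, as distance from the stop codon in nt (x axis), with 1 track per gene. Marks above a track are DRACH sites, marks below it are other contexts, and colours give the library. Opcml shows a block of DRACH sites between 1100 and 3000 nt, Ntm is covered along most of its 3′ UTR, and Lsamp has no DRACH site between the first 500 nt and 3546 nt.

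Listed shares were compared between motif variants. Of the 27 GGACT contexts in their reference isoforms 13 were listed in cerebellum (48.1%, 30.7 to 66.0%) and 16 in cerebrum (59.3%, 40.7 to 75.5%), against 10.6% and 18.6% of GGACT contexts over coding genes. All 13 were shared. The contexts AGACT and GAACT were listed at 9 and 12 of 40 and at 8 and 9 of 35 positions, with backgrounds of 9.16% and 14.9%, and 9.91% and 16.1%. AAACA, the most common of these contexts with 98 positions, was listed at 4 and 5 of them, with a background of 1.28% and 2.22%. Among these 4 contexts GGACT had the highest and AAACA the lowest share in both libraries.

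GGACT sites were found far from the stop codon as well as near it. Those printed here were listed in both libraries and lie 470 to 5836 nt past the stop codon in genes of both families.
Lsamp, chr16:42174702-42174722, plus strand, 470 nt past the stop codon: gccattttGGACTatcaacgg
Opcml, chr9:28922861-28922881, plus strand, 2684 nt past: ttgagtatGGACTcagggtca
Negr1, chr3:157315707-157315727, plus strand, 2807 nt past: agcctattGGACTgcattctt
Cadm2, chr16:66657247-66657267, minus strand, 5836 nt past: tcctacacGGACTtttaagcg
Cadm3, chr1:173336140-173336160, minus strand, 871 nt past: gagcccctGGACTgttgcacg

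The coding sequences held few listed sites. They contain 201 DRACH adenosines, of which 3 were listed in cerebellum (1.49%, 0.51 to 4.30%) and 5 in cerebrum (2.49%, 1.07 to 5.69%). Coding genes had 3.55% and 6.28% listed, and the cerebellum interval of the members includes that background. The background also covers long internal exons, which these genes lack. In internal exons, all short in these genes, 0 and 1 of 173 DRACH adenosines were listed, beside a background for short internal exons of 0.417% and 0.956%, and a count of 0 of 173 allows a share of up to 1.73%. Last exons had 85 and 99 of 674 listed (12.6% and 14.7%, background 5.58% and 9.47%), and 3′ UTRs 83 and 96 of 658 (background 5.15% and 8.54%). Of 196 DRACH adenosines less than 100 nt from a splice junction 2 were listed in cerebellum and 4 in cerebrum (1.02% and 2.04%). At 100 nt or more the members had 12.6% and 14.7% listed. No share over coding genes is set beside these values.

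Apart from the Opcml site shown above, 1 coding DRACH site was shared, in exon 1 of Lsamp, and it is shown because it lies outside the last exon.
Lsamp, chr16:41533420-41533440, plus strand, CDS: tcctactgAGACTgctctgcc

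First exons held the remaining shared sites. The 5′ UTR sites found in both libraries numbered 7, of which 3 were in Ntm, 2 in Opcml and 2 in Cadm2. Those of Ntm-203 and Opcml-201 belong to isoforms whose first exon runs through exon 2 of the reference isoform, and the listed sites lie upstream of that exon, in the first reference intron. In Opcml 3 further shared DRACH sites lay just upstream, in exon 1 of Opcml-206. One shared 5′ UTR site per gene is shown.
Ntm-203, chr9:29412061-29412081, minus strand: ccatgcctGAACTgctacggg
Opcml-201, chr9:28403816-28403836, plus strand: tctgtcagAGACActtgcctt
Cadm2-201, chr16:67620702-67620722, minus strand: ttctcccaGGACTctgacacc

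Exonic sites outside DRACH were fewer than those within it. There were 24 in cerebellum and 77 in cerebrum, and 9 were common to both (37.5% and 11.7%, where coding genes had 40.2% and 12.4%). Each of these 9 differed from DRACH by 1 base, and 7 of them kept the C after the A. Of the 83 listed in a single library 30 differed by 1 base (36.1%). A shared example is shown for each gene that had one.
Ntm, chr9:28996237-28996257, minus strand, 3′ UTR: cacaagctGCACTgtgtgacc
Opcml, chr9:28921824-28921844, plus strand, 3′ UTR: tgtgttgaCAACTctggtatt
Negr1, chr3:157313054-157313074, plus strand, 3′ UTR: ttgtgtaaATACTttcattct
Cadm2, chr16:66662961-66662981, minus strand, 3′ UTR: cccatactGTACTgctctcag

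Exonic DRACH sites of the members were largely common to both tissues. Of the 102 in cerebellum 88 were listed in cerebrum (86.3%, 78.3 to 91.6%, background 83.3%), and these were 88 of the 118 in cerebrum (74.6%, 66.0 to 81.6%, background 48.4%). The cerebrum list is longer, but exonic DRACH sites of the members were only 1.16 times as many in it, against 1.72 times over coding genes. Their exonic sites outside DRACH were 3.21 times as many (coding genes 3.23), intronic DRACH sites 1.93 times (2.93) and other intronic sites 2.73 times (3.53). The intronic counts of coding genes, unlike those of the members, leave out positions on exons of other genes.

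The contrast was widest in Opcml, in which 33 of 36 and of 37 exonic DRACH sites were common to both libraries. In the introns of Opcml, by comparison, sites outside DRACH numbered 48 in cerebellum and 242 in cerebrum, a ratio of 5.04, with 1 shared. Negr1 had 9 exonic DRACH sites in cerebellum and 8 in cerebrum, and all 8 were shared. Lsamp shared 9 of 11 and 14, Ntm 17 of 20 and 25, and Cadm2 13 of 15 and 17. Cadm1 shared 3 of 4 and 7, Cadm3 4 of 6 and 7, and Cadm4 1 of 1 and 3. Whether a site listed in 1 tissue alone was unmethylated or too thinly covered in the other was not tested, since the lists hold no reads.

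Intronic sites, those on no exon of the gene, numbered 652 in cerebellum and 1705 in cerebrum. They were 83.8% and 89.7% of the member sites. Without positions on exons of other genes, the rule used for coding genes, the member shares were 83.2% and 88.8%, against 17% and 24.8% for coding genes. By gene they were 219 and 559 in Lsamp, 160 and 388 in Cadm2, 80 and 185 in Ntm, 52 and 264 in Opcml, 89 and 176 in Negr1, and 50 and 126 in Cadm1. Cadm3 had 2 and 7, and Cadm4 had 0 in both. Without Lsamp the count in cerebellum was 433.

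Counts per Mb of intron were also high. Leaving out positions on exons of other genes, the members had 102 intronic sites per Mb in cerebellum and 267 in cerebrum, and coding genes 16.2 and 55.5. Cadm2 had 167 and 406 per Mb and ranked 9 and 10 among the 1966 coding genes with at least 100 kb of intron, and Cadm1 had 158 and 385 per Mb and ranked 12 and 13. Lsamp, with 100 and 256 per Mb, ranked 35 and 64, although by number of intronic sites it was first in cerebellum and second in cerebrum. The median of these genes was 3.35 and 18.2 per Mb.

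In Lsamp most intronic sites lay outside the reference transcript. Lsamp-202 starts 1549 kb into the gene interval, and 500 of the 769 intronic sites of either library were upstream of that start, in the introns of longer transcripts, while 269 were inside the 649 kb of Lsamp-202. Nearly all were listed in 1 library, with 9 shared in Lsamp, 3 in Cadm2 and 1 in Opcml, but 19 in Cadm1, 12 in Ntm and 9 in Negr1.

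**Figure D4:**
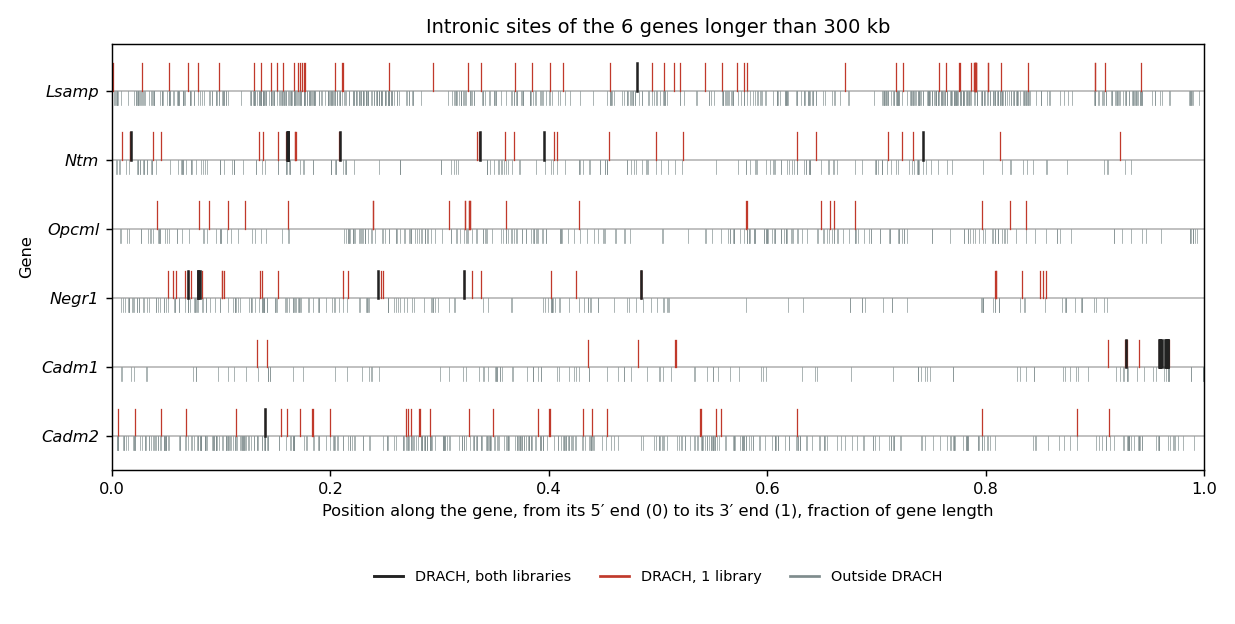
Positions of intronic sites along the 6 longest genes, from the 5′ end (0) to the 3′ end (1) as a fraction of gene length. Marks above a track are DRACH sites, in black where both libraries list them, and marks below are other contexts. Sites outside DRACH occur along the intervals, though unevenly. Over all members each successive 25% of gene length held 199, 138, 130 and 93 in cerebellum and 506, 393, 321 and 307 in cerebrum. The shared DRACH sites of Cadm1 are all in the last 25%.

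DRACH sites were a minority in introns, 92 in cerebellum and 178 in cerebrum (14.1% and 10.4%). Without positions on exons of other genes the shares were 14.2% and 10.55%, beside a background of 14.6% and 12.4%. All backgrounds in this paragraph leave such positions out. Of the intronic DRACH sites 31 were in both libraries, 33.7% of those in cerebellum (24.9 to 43.8%, background 38.4%) and 17.4% of those in cerebrum (background 13.1%). Of the intronic sites outside DRACH 22 were, which is 3.93% and 1.44% (background 6.21% and 1.76%). None of the intronic DRACH sites was on an exon of RefSeq, while 4 and 10 of the other intronic sites were.

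Intronic DRACH sites were partly grouped in runs, taken here as 3 or more with gaps of at most 1000 nt, a definition chosen after the positions were seen. The members had 13 runs, which held 62 of their 239 intronic DRACH sites (25.9%, background 20.1%) and 22 of the 31 shared ones (71.0%, 53.4 to 83.9%, background 55.1%). By sites in runs, Cadm1 with 21 ranked 7 of 12874 genes, Negr1 with 16 ranked 10 and Ntm with 14 ranked 20. Lsamp had 7 and Opcml 4 sites in runs, and Cadm2, in spite of its many intronic sites, had none.

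The runs of Cadm1 were all in the 18.8 kb intron between exons 8 and 9 of Cadm1-204. One run of 8 sites spanned 771 nt (chr9:47844076-47844846) with 6 sites in cerebellum and 8 in cerebrum, 6 of them shared. The next, of 10 sites over 1077 nt (chr9:47845855-47846931), had 7 and 9 sites, again with 6 shared, and the third held 3 sites further upstream. The 2 large runs lay 3321 and 1236 nt from the nearest annotated exon. Of the 16 and 26 intronic DRACH sites of Cadm1 15 and 21 were in the last 25% of the gene, including all 13 shared ones, so Cadm1 had more shared DRACH sites in this intron than the 3 it had on exons.

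Shared sites of these 2 runs are printed because Cadm1 had more shared intronic DRACH sites than any other member.
Cadm1, chr9:47844193-47844213, plus strand: tgcagtttAGACTtgcatcca
Cadm1, chr9:47844328-47844348, plus strand: cctctccaGGACAacaaggac
Cadm1, chr9:47844836-47844856, plus strand: tccactttGGACCaatccaca
Cadm1, chr9:47846094-47846114, plus strand: gtcatgatGGACTcagtcttt
Cadm1, chr9:47846449-47846469, plus strand: cacggagtAGACTaattggct

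Ntm and Negr1 had runs at a wide range of distances from exons. The nearest were a Negr1 run of 3 sites, 125 nt from an exon, and an Ntm run of 3 sites, 4359 nt away. In Ntm a run of 8 sites over 1273 nt (chr9:29807233-29808505), with 4 sites in cerebellum and all 8 in cerebrum, lay in the 551 kb intron between exons 1 and 2, and the nearest exon was 132829 nt away. In Negr1 a run of 5 sites over 532 nt (chr3:156620948-156621479) was listed in full in cerebellum and at 2 positions in cerebrum, both shared. The cerebellum thus had more sites in this run, although the cerebrum list is the longer one. Of the intronic DRACH sites of Negr1 17 of 23 in cerebellum and 14 of 28 in cerebrum were in the first 25% of the gene. The intronic sites of Negr1 outside DRACH were also frequent there, with 36 of 66 and 77 of 148. A shared site of each run is shown.
Ntm, chr9:29807358-29807378, minus strand: cattcatcAGACTttaagcca
Negr1, chr3:156621447-156621467, plus strand: tctagactGAACTgtatgcac

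The intronic sites outside DRACH had contexts of their own. The A was followed by TC in 122 of 555 such sites in cerebellum and 212 of 1510 in cerebrum (22.0% and 14.0%, background 25% and 16.9%). Among the 21 found in both it was in 12 (57.1%, background 59.6%). These counts leave out positions on exons of other genes. The commonest contexts over both libraries were TCATC with 44 positions, CCATC with 35 and TTATC with 34, and among shared sites CTATC was most frequent, with 6. Examples shared by both libraries are shown from genes of both families.
Lsamp, chr16:41566052-41566072, plus strand: tagcatccCTATCaggtaacc
Lsamp, chr16:42030235-42030255, plus strand: ttctatctCTATCcacttacc
Negr1, chr3:156897549-156897569, plus strand: aacttcccTGATCtatatcct
Cadm1, chr9:47645591-47645611, plus strand: attatttcCTATCcctatcat

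Close pairs of these sites had a preferred spacing of 6 nt. Among pairs 1 to 20 nt apart, 25 of 47 in cerebellum and 38 of 100 in cerebrum were exactly 6 nt apart (53.2% and 38.0%), and coding genes had 59.6% and 41.8%. Pairs 3 nt apart numbered 10 and 13, and pairs 9 nt apart 2 and 10. The intronic DRACH sites formed 6 and 7 pairs within 20 nt, of which 0 were 6 nt apart. Over coding genes 6 of 62 and 10 of 151 DRACH pairs were (9.68% and 6.62%). With so few member pairs a count of 0 does not set them apart from that background. The Negr1 and Cadm1 sites printed last belong to such pairs, with partners at 156897565 and 47645607 in both libraries. Neither the ATC share nor the share at 6 nt was above that of coding genes.

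**Figure D5:**
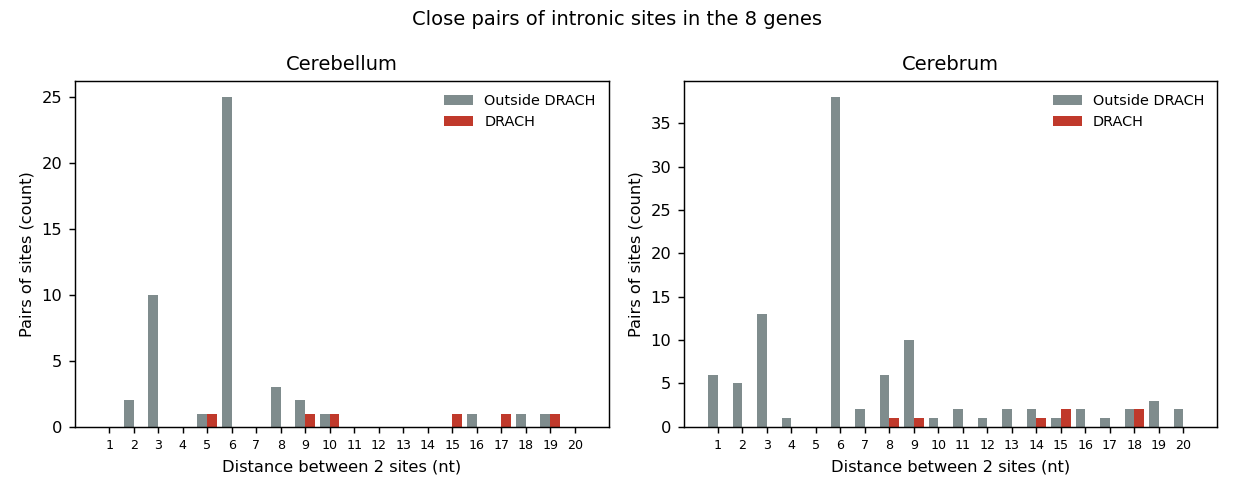
Number of pairs of intronic member sites at each distance from 1 to 20 nt (x axis, nt), for sites outside DRACH and DRACH sites in each library. Outside DRACH the count at 6 nt is 25 in cerebellum and 38 in cerebrum. DRACH sites, with only 6 and 7 pairs in all, have 0 pairs at 6 nt in both.

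Related adhesion genes and cytosolic partners were counted for comparison. Of 12 related immunoglobulin-superfamily adhesion genes 10 had an exonic site in cerebellum and 11 in cerebrum, and 4.66% and 6.69% of their 1330 DRACH adenosines were listed. Nrcam (22 and 42 exonic sites), Nectin3 (20 and 38), Chl1 (22 and 30), Nfasc (14 and 29), Ncam2 (11 and 26) and Ncam1 (12 and 20) had the most. Like the long IgLON genes, 3 of them had more intronic than exonic sites in both libraries, namely Ncam2 (75 and 103 intronic), Ncam1 (38 and 103) and Nfasc (22 and 48).

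Of 9 cytosolic partners of SynCAM proteins, scaffold and cytoskeletal linkers, 8 and 9 had an exonic site. Their listed share was 6.35% and 7.60% of 803 DRACH adenosines, beside 5.70% and 7.60% for the SynCAM genes themselves. Epb41l1 (27 and 32 exonic sites), Farp1 (14 and 25), Cask (8 and 18), Mpp6 (9 and 15), Epb41l3 (4 and 14) and Epb41l2 (2 and 10) had the most. The background was 4.22% and 7.2%, and the IgLON share was 13.9% and 15.9%. Within the IgLON genes, Ntm and Opcml had 23.0% to 27.4% listed, Negr1 9.28% and 8.25%, and Lsamp 5.85% and 8.19%. These differences were not tested.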

How the data were processed

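GLORI was carried out on 1 cerebellum and 1 cerebrum library of poly(A)+ RNA. Per the study's methods, the authors mapped reads to mm10 and to a copy of it carrying PWK bases at SNPs, called sites with GLORI-tools v1.0, united both call sets in each sample and required a methylation rate above 0.1 and more than 8 reads. The deposited files give the genomic position and strand of each site and hold no rates or counts, so the filter ties listing to coverage and expression, and depth is unknown.

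Sites were placed on GENCODE M21 gene models and the GRCm38.p6 sequence of RefSeq. GENCODE M21 is not the release the study names, which can move sites between regions. A site was assigned to the longest complete coding isoform covering it, and listed shares used 1 reference isoform per gene. DRACH denotes A, G or T, then A or G, then AC, then any base but G. Shares have 95% Wilson intervals, and a count of 0 was given the limit of 3 counts. The 8 genes and the gene lists were chosen with earlier results of these data known. Sites printed were, per gene, the shared DRACH site nearest to the stop codon, shared coding DRACH sites, and 1 shared exonic site outside DRACH. Of the densest 50 nt of each gene, only a pair of shared Ntm sites was printed. The densest 50 nt of Lsamp, Opcml, Negr1, Cadm1 and Cadm2 lie in introns. The other printed sequences (GGACT, 5′ UTR, runs and ATC sites) were chosen after their positions were seen. List genes named were those with the most exonic sites. Part of the forebrain markers is not reported here. Alternatives were the exons, isoforms, motif, libraries, windows and overlap rules used, and each gene left out.

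Python 3.11.15, numpy 2.4.6, scipy 1.17.1, pysam 0.24.0, samtools 1.23.1 and matplotlib 3.10.9 were used. Annotation was tested on simulated data, where 2843 sites on 407 transcripts were all recovered.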

Additional observations from a re-analysis of the deposited data

Results flagged for a closer look

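Sites on the strand opposite to the genes, which no comparison used, numbered 5 in cerebellum and 8 in cerebrum inside the 8 gene intervals. They made up 10 positions, of which 3, all in Ntm, were listed in both libraries, and 0 lay in an annotated gene on that strand. Their density was 0.781 and 1.25 per Mb, against 122 and 297 per Mb on the gene strand. At 8 cerebrum sites of the members mm10 has no A on the gene strand. All 8 were at a G, in introns, and 0 were also listed in the cerebellum.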

How the results depend on the processing

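No paired analysis was possible because there was 1 library per tissue, and no result came from a test. Besides leaving out genes, 27 alternative values stayed within their limits and 19 moved beyond them. The limit was the counting interval for a share and a fixed fold range for a number of sites. Values for the cerebellum and then the cerebrum follow. Restricting to exons gave 126 and 195 sites and a DRACH share of 81.0% and 60.5%. Restricting to sites in both libraries gave a DRACH share of 79.3%, a 3′ UTR share of 90.4% and a CDS share of 2.13% for both. Restricting to DRACH sites gave a shared fraction of 61.3% and 40.2%, and a CDS share of 4.39% in the cerebrum. With 1 reference isoform per gene the 5′ UTR share was 4.50% and 4.43%. Within 400 nt of the stop codon lay 25.2% and 24.1% of sites. At least 100 nt from junctions 12.6% and 14.7% of DRACH adenosines were listed. These moves follow from the sites each alternative keeps.

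Leaving out each gene in turn moved 13 of 160 values beyond the same limits. The site number ranged from 546 to 777 and from 1318 to 1894, the DRACH share from 22.6% to 30.6% and from 14.2% to 17.7%, and the shared fraction from 16.4% to 24.2% and from 7.03% to 10.02%. The intronic number ranged from 433 to 652 and from 1146 to 1705, and the intronic share from 79.3% to 87.9% and from 86.9% to 90.9%. The listed share ranged from 7.87% to 11.02% and from 9.71% to 12.9%. The 5′ UTR share ranged from 8.42% to 11.1% and from 5.80% to 8.67%, the CDS share from 2.78% to 6.32% and from 9.42% to 12.7%, the 3′ UTR share from 84.0% to 86.1% and from 79.4% to 84.8%, and the share near the stop codon from 12.1% to 18.4% and from 13.7% to 20.5%. The lowest and highest shares were mostly set by leaving out Lsamp, Ntm or Opcml. With depth unknown, a site missing from a list cannot be read as unmethylated.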
